A study of Homo sapiens with 25 samples.

Results

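The comparison described here is the RNA response to the CHK1 inhibitor prexasertib in A549 cells whose TRRAP had been targeted for degradation beforehand. A549 is an established human lung carcinoma line, and the cells used carry a degron tag, mAID, on TRRAP. All cells had first been held in 2 mM thymidine (20 h) and let go into S phase (4 h). The first set of libraries came from cells given 1 µM 5-Ph-IAA for 6 h and prexasertib for 3 h, called both drugs below, and the libraries they were set against came from cells given 5-Ph-IAA alone. These 6 libraries, 3 in each group, are part of 12 RNA libraries in a series of 25 samples, and they were chosen by their sample titles. The other 6 RNA libraries, 3 from cells given prexasertib and 3 from cells given DMSO, measure the same response without 5-Ph-IAA and are used as the point of comparison. The tag is present in all 4 groups by the growth protocol, although the labels also list the genotype as WT, and the labels do not say how many clones were used. The RNA labels state the prexasertib dose in mM whereas those of the chromatin samples state it in nM, so no dose is given.

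TRRAP is a large scaffold protein shared by the SAGA and TIP60 histone acetyltransferase complexes and is brought to promoters by transcription factors such as MYC. CHK1 restrains cyclin-dependent kinases during S phase, so inhibiting it lets cells in S phase raise mitotic kinase activity early. Genes of G2 and mitosis are transcribed through the MMB complex, in which B-MYB (the product of MYBL2) joins the MuvB core, and through FOXM1. MuvB contacts a short promoter element, the cell cycle genes homology region (CHR), often next to a CCAAT box, which binds NF-Y. The question set by the series title is how far TRRAP is needed for that mitotic transcription.

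Promoter windows of 5 named genes are shown because they hold the promoter elements counted over the gene groups below. Other matches to the searched motifs in these windows are left in lower case. Each window is 300 bases of RefSeq sequence on GRCh38.p14, read 5′ to 3′ on the strand of the gene, with 250 bases before the start that the window table uses. PLK1 encodes a mitotic kinase and lies at chr16:23678639-23678938 on the plus strand. PIF1 encodes a DNA helicase and lies at chr15:64825598-64825897 on the minus strand. The start used by the RefSeq window of PIF1 is inside the gene, downstream of the 5′ end of the full span given for it below. CDK1 encodes the mitotic cyclin-dependent kinase and lies at chr10:60778081-60778380 on the plus strand. In these 3 windows the capitals mark the CHR (TTTGAA or TTCGAA) and the CCAAT box (CCAAT), on either strand. EGR1, an immediate-early transcription factor, lies at chr5:138465229-138465528 on the plus strand, and its capitals mark the serum response element core. DTL, an adaptor of the ubiquitin ligase that removes CDT1, lies at chr1:212035498-212035797 on the plus strand, and its capitals mark E2F sites (TTCCCGC or TTGGCGC).
PLK1: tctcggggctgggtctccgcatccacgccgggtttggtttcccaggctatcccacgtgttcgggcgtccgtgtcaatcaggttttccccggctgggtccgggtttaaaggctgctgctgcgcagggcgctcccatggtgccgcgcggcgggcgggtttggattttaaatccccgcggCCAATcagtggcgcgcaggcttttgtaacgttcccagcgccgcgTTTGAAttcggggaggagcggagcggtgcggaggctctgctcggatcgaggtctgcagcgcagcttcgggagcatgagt
PIF1: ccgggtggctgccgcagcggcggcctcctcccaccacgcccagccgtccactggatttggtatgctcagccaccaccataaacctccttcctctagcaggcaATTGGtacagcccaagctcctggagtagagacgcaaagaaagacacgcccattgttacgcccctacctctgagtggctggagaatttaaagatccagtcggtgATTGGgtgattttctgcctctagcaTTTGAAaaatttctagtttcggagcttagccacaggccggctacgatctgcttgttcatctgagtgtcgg
CDK1: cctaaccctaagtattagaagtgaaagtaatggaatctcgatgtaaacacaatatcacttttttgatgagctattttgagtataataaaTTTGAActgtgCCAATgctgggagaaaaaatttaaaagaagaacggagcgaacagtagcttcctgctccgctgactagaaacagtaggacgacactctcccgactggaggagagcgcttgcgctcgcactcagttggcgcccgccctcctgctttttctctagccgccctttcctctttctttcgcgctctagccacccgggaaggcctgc
EGR1: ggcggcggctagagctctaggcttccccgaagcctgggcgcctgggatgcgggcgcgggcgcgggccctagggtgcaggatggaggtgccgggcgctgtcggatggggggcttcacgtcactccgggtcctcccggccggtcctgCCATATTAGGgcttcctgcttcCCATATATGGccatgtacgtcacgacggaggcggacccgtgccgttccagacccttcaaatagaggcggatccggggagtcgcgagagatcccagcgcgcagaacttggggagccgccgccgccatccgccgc
DTL: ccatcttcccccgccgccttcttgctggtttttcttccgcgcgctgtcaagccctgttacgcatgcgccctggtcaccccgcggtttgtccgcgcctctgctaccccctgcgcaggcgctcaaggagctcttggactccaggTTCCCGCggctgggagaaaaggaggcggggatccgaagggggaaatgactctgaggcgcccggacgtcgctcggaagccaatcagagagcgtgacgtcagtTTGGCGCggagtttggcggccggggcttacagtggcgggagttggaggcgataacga

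The 12 RNA libraries held 10830048 to 17789482 counts each, with 17135 to 18912 genes at 1 count or more, and 14658 genes passed the filter on low counts. Epithelial markers summed to 10200 to 11600 CPM (counts scaled to a common library size) with both drugs and 10200 to 10900 CPM with 5-Ph-IAA, whereas 16 markers of other cell types (neuronal, endothelial, fibroblast and blood) summed to 82.2 to 105 CPM with both drugs and 85.6 to 104 CPM with 5-Ph-IAA. The targeted gene checks nothing here, because 5-Ph-IAA acts on the protein. TRRAP mRNA stood at 116, 99.7 and 141 CPM with both drugs, against 129, 150 and 119 CPM with 5-Ph-IAA, and the groups overlapped. Libraries with the same replicate number deviated from their group means together, with correlations over genes of 0.32 to 0.63 between both drugs and 5-Ph-IAA. Libraries numbered 3 stood apart in every group, with correlations of -0.503 to -0.326 between the deviations of number 3 and those of number 1 or 2. Numbers 1 and 2 were not told apart in this way, since their deviations correlated across groups by 0.196 to 0.366. The replicate number was therefore kept as a block in the fit, and the main counts are also given without the libraries numbered 3. The labels do not say that replicates were separate cultures, so the p-values speak only of the spread among these libraries, which may be technical. In bulk RNA, a change in the share of cells at one cycle stage and a change in RNA per cell cannot be told apart.

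Prexasertib still changed many genes after 5-Ph-IAA. Of 14658 genes tested, 1144 (7.8%) were higher and 1128 (7.7%) were lower with both drugs than with 5-Ph-IAA, at an edgeR quasi-likelihood adjusted p under 0.05. Most changes were small: 281 of the genes called higher and 260 of those called lower moved beyond 0.5 on the log2 scale, and 68 and 34 moved beyond 1. Of the genes called higher, 1124 were higher in all 3 replicate numbers, and of those called lower 1099 were lower in all 3. Over all genes tested, 48.4% kept 1 direction throughout. The calls were made from these same libraries, so agreement among called genes is largely built in and is not separate evidence. The counts depended on the block and on a few libraries. Without the block edgeR called 171 genes higher and 184 lower, and all 355 were among the 2272 with the same sign. With library size as the only scaling, 660 genes were higher and 1662 lower, a share of 28.4% higher, against 50.4% with the trimmed-mean scaling used here. Leaving out 5-Ph-IAA replicate 1 gave 577 higher and 638 lower, leaving out 5-Ph-IAA replicate 2 gave 523 and 591, and leaving out all 4 libraries numbered 3 gave 973 and 1183.

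Most prexasertib responses seen without 5-Ph-IAA kept their direction after it, but fewer than 50% of them were called again. Without 5-Ph-IAA, 1227 genes (8.37%) were higher and 1432 (9.77%) lower with prexasertib than with DMSO, and this comparison shares no library with the one above. Of the 1227 genes that rose without 5-Ph-IAA, 554 (45.2%) were also called higher after it, 673 were not called, and none was called lower. The fold change had the same sign in 1126 of the 1227 (91.8%). Their median log2 fold change was 0.206 after 5-Ph-IAA and 0.349 without it. Of the 1432 genes that fell without 5-Ph-IAA, 694 (48.5%) were also called lower after it, 729 were not called and 9 were called higher, and 90.7% kept the sign. Their median was -0.261 after 5-Ph-IAA and -0.377 without it. Genes chosen by the other comparison showed the reverse order of medians: the 1144 genes called higher after 5-Ph-IAA had a median of 0.291 after it and 0.213 without it, and the 1128 called lower had -0.357 and -0.313. Seen from that side, 554 of the 1144 (48.4%) and 694 of the 1128 (61.5%) were also called without 5-Ph-IAA. The shared calls fell to 356 higher and 428 lower without 5-Ph-IAA replicate 2, and to 457 lower without 5-Ph-IAA replicate 1. Over all 14658 genes 68.1% had the same sign in the comparisons, and over the 3674 called in either 88.3% did. Across genes, which are not independent replicates, Pearson's r between the fold changes was 0.513 over all genes and 0.732 over those 3674.

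Most of the strongest responses were called again. Among genes averaging 1 or more in log2 CPM, 57 rose at least 2-fold without 5-Ph-IAA, and 45 of them were called higher and 56 had a positive fold change after it. Of 32 that fell at least 2-fold, 22 were called lower and 31 had a negative fold change. In the other direction, 31 genes rose at least 2-fold after 5-Ph-IAA and 28 of these were called higher without it, while 13 fell at least 2-fold and 9 were called lower without it.

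**Figure D1:**
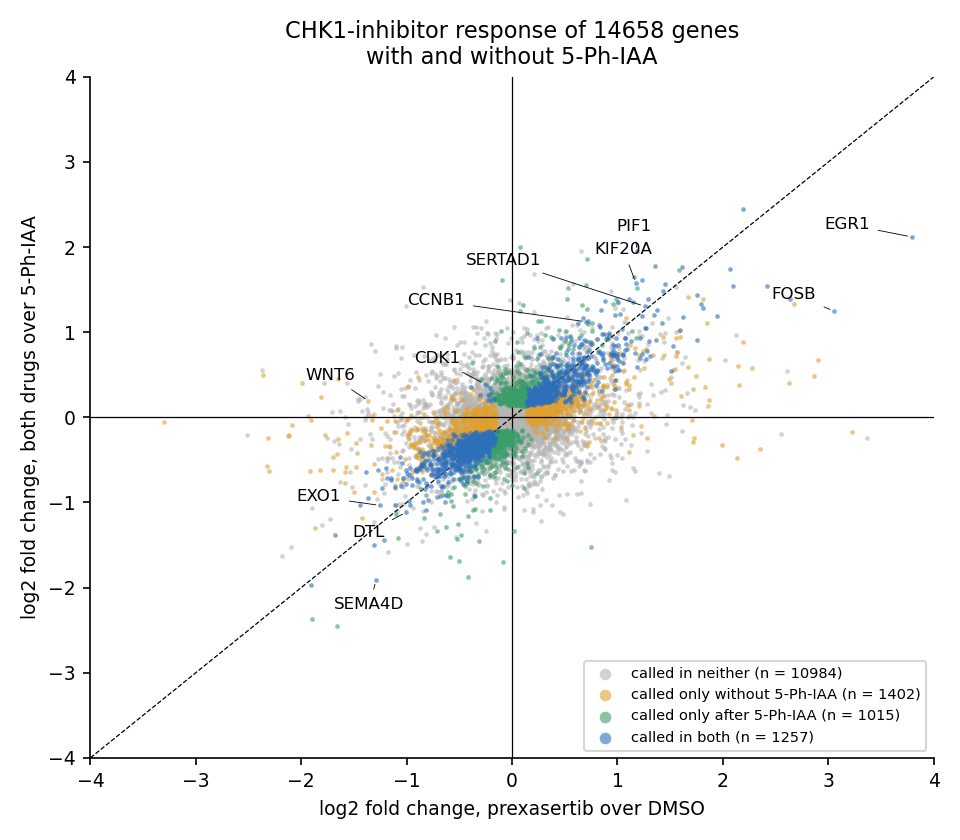
Log2 fold change of each of 14658 genes with both drugs over 5-Ph-IAA (vertical axis) against prexasertib over DMSO (horizontal axis), coloured by edgeR call. The 1257 genes called in both comparisons lie along the dashed line of equal change in the upper right and lower left, and 9 of them, CDK1 among them, lie in the upper left.

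The 12 largest rises after 5-Ph-IAA, among called genes averaging 1 or more in log2 CPM, included genes of the immediate-early response and of mitosis. EGR1 (chromosome 5, 138465479 to 138469303) stood at 32.1, 31.3 and 22.9 CPM with both drugs, against 7.73, 7.14 and 5.39 CPM with 5-Ph-IAA. Its log2 fold change was 2.12 ± 0.17 (SE, edgeR adjusted p 3.39e-09), and the groups did not overlap. KIF20A (chromosome 5, 138179112 to 138187723), a kinesin of the mitotic spindle midzone and cytokinesis, stood at 201, 197 and 203 CPM with both drugs and 67.5, 65 and 68.6 CPM with 5-Ph-IAA, and the fold change was 1.58 ± 0.05 in log2 (edgeR adjusted p 4.3e-28). Every library with both drugs lay far above every library with 5-Ph-IAA alone. PIF1 (chromosome 15, 64815632 to 64827062) stood at 31.2, 30.4 and 29.8 CPM with both drugs and 9.81, 8.89 and 4.93 CPM with 5-Ph-IAA, and its log2 fold change was 1.95 ± 0.31 (edgeR adjusted p 0.00682). PIF1 was not called without the 4 libraries of replicate 1 or of replicate 2, and KIF20A overlaps CDC23. SERTAD1 (chromosome 19, 40421589 to 40425992), a regulator of E2F and CDK4 activity, stood at 168, 182 and 202 CPM with both drugs, against 65.5, 69.7 and 89.4 CPM with 5-Ph-IAA. Its log2 fold change was 1.30 ± 0.07 (edgeR adjusted p 3.47e-17), and that without 5-Ph-IAA was 1.26. For SERTAD1 the 95% interval of the difference between the responses ran from -0.15 to 0.24 on the log2 scale.

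Others of the 12 largest rises were APOLD1, GRIN2C, FAM72D, FAM72C, POU3F1, LAG3 and TIGD3, with log2 fold changes between 1.27 and 1.54. GRIN2C, a subunit of the NMDA glutamate receptor, had 56.1, 53.6 and 28.2 CPM with both drugs and 20.5, 20.8 and 8.34 CPM with 5-Ph-IAA. The library numbered 3 was the lowest in both groups. Each library with both drugs was above the 5-Ph-IAA library of the same number, which the rule of choice required. Without the replicate block its edgeR adjusted p was 0.0926. The FAM72 genes are near-identical copies that lie beside copies of SRGAP2, so reads may be shared among them, and their separate values are uncertain. APOLD1, an early-response gene of endothelium, averaged 4.36 ± 0.863 CPM with both drugs and 1.55 ± 0.55 CPM with 5-Ph-IAA (SD, n = 3 each). LAG3 and TIGD3 averaged 6.29 and 3.3 CPM with both drugs, against 2.6 and 1.4 CPM with 5-Ph-IAA. LAG3 was not called without the block, and TIGD3 was not called with DESeq2, without 5-Ph-IAA replicate 2 or without the 4 libraries of replicate 2.

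The 12 largest falls after 5-Ph-IAA, chosen in the same way, were led by SEMA4D, and genes of DNA replication and repair were among them. SEMA4D (chromosome 9, 89360787 to 89498113), a membrane semaphorin, stood at 14.8, 13 and 8.68 CPM with both drugs, against 56.8, 57.2 and 26 CPM with 5-Ph-IAA. Its log2 fold change was -1.91 ± 0.11 (edgeR adjusted p 1.77e-19), and the gene overlaps SECISBP2, so reads could not be assigned with certainty. DTL (chromosome 1, 212035748 to 212105013) stood at 15.4, 18.5 and 18.6 CPM with both drugs and 38, 35.4 and 39.8 CPM with 5-Ph-IAA, and the fold change was -1.11 ± 0.10 in log2 (edgeR adjusted p 8.84e-12). All 3 libraries with both drugs were below all 3 with 5-Ph-IAA, and the window printed above holds 2 E2F matches. EXO1 (chromosome 1, 241847986 to 241889939), an exonuclease of mismatch repair and end resection, stood at 19.6, 16.9 and 27.7 CPM with both drugs and 38.7, 42.4 and 49.8 CPM with 5-Ph-IAA, and the fold change was -1.03 ± 0.09 in log2 (edgeR adjusted p 6.46e-13). For DTL and EXO1 the fold changes without 5-Ph-IAA were -1.0 and -1.25.

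The remaining 9 of the 12 largest falls had log2 fold changes between -1.50 and -1.03. UBE2QL1, a gene of the ubiquitin-conjugating family, stood at 2.27, 1.77 and 2 CPM with both drugs and 5.72, 5.7 and 5.84 CPM with 5-Ph-IAA, and it was not called with DESeq2. ANKRD1, a gene known as a target of YAP, stood at 13.5, 17 and 19.2 CPM with both drugs, against 40.4, 39 and 31.2 CPM with 5-Ph-IAA. ANKRD1 was not called in 6 of the fits that left out libraries, although it fell in each. ADGRD1, USP51, RASGRP1, KCNE4, NBPF19, PODNL1 and LHX4-AS1 averaged 1.16 to 3.69 CPM with both drugs and 2.73 to 7.35 CPM with 5-Ph-IAA. None of these 7 was called without the replicate block, and PODNL1, LHX4-AS1, RASGRP1, USP51 and NBPF19 also lost their call in 1 to 5 of the fits that left out libraries. LHX4-AS1 is antisense to LHX4 and overlaps ACBD6, NBPF19 has close paralogs, and PODNL1 overlaps DCAF15, so these 3 values are uncertain.

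**Figure D2:**
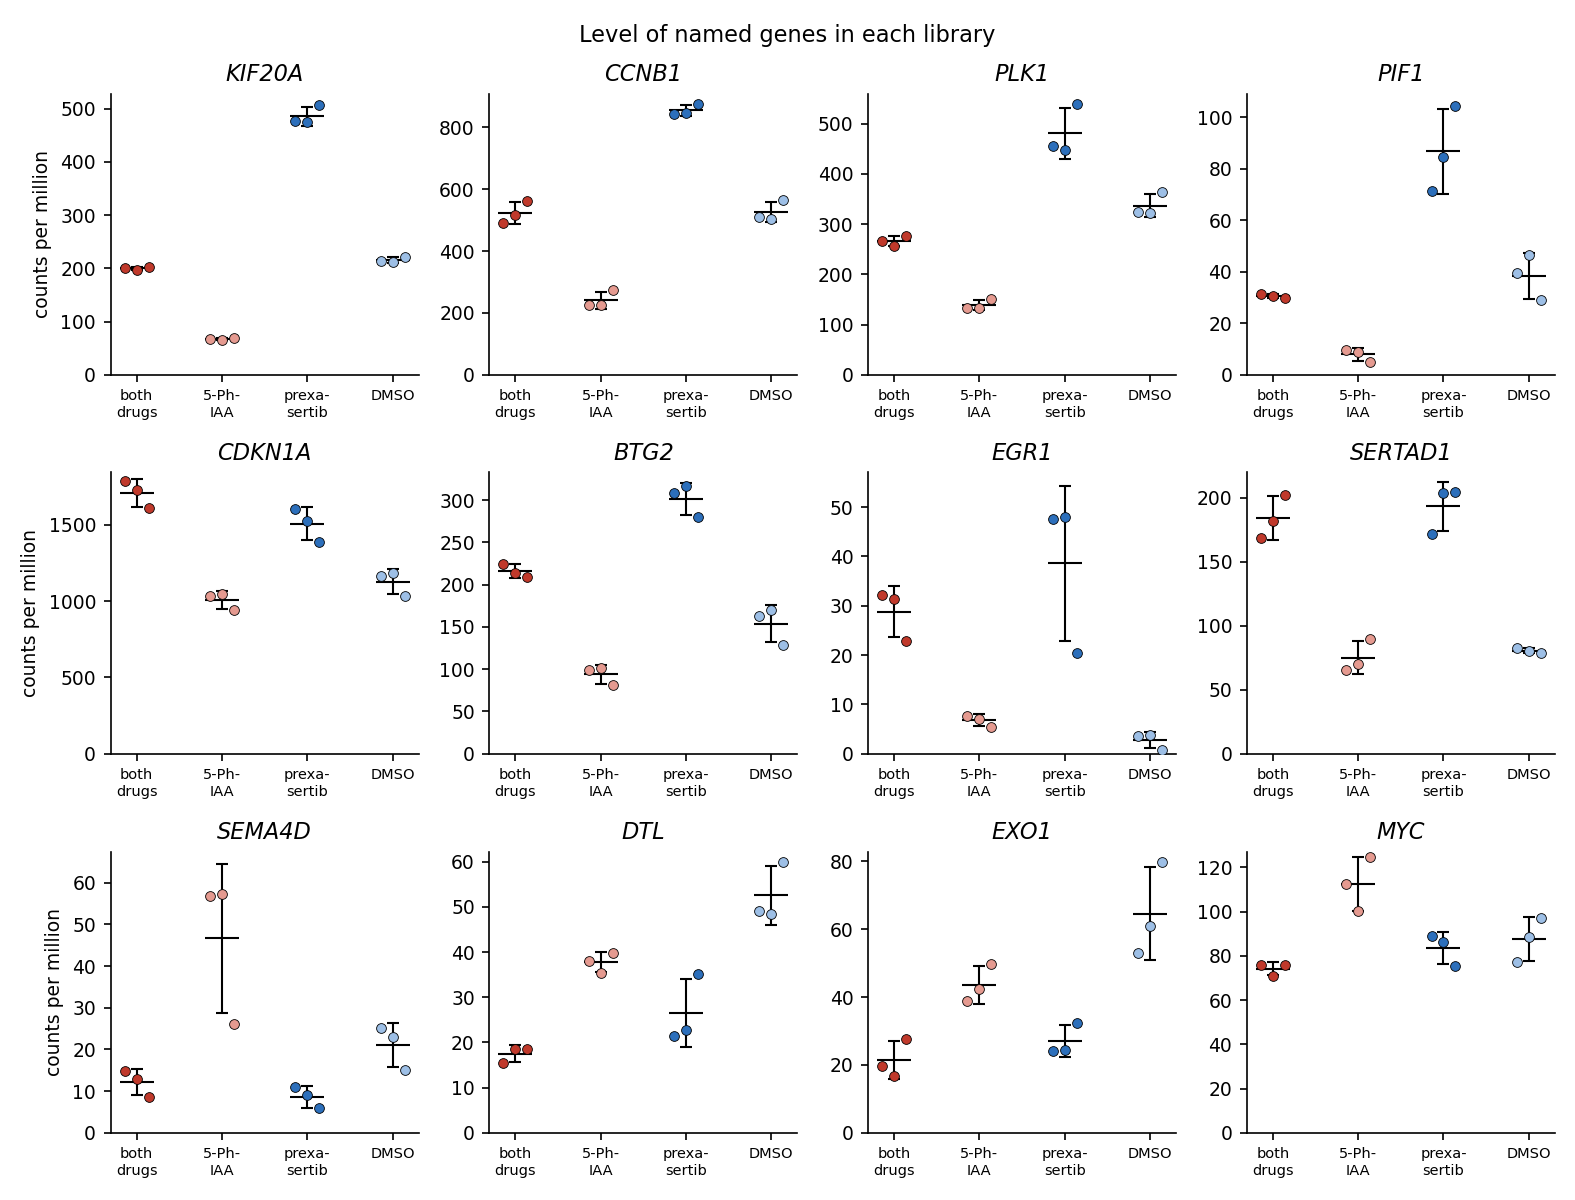
CPM of 12 named genes in each of the 12 libraries (points), with the group mean as a dash and the SD as whiskers. KIF20A, CCNB1 and PLK1 are higher with both drugs than with 5-Ph-IAA in every library but lie well below their prexasertib levels, whereas SERTAD1 reaches 168 to 202 CPM with both drugs and 171 to 205 CPM with prexasertib.

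Most mitotic genes still rose. Of 80 known targets of MMB and FOXM1 tested, 66 rose and 1 fell after 5-Ph-IAA, while 7.8% of all genes tested rose, and the median log2 fold change of the list was 0.506 against 0.0126 over all genes tested. Without 5-Ph-IAA, 71 of the 80 rose and 2 fell, with a median of 0.531, and 65 rose in both. CCNB1, the mitotic cyclin B1, stood at 492, 517 and 563 CPM with both drugs and 225, 226 and 273 CPM with 5-Ph-IAA, and the fold change was 1.12 ± 0.05 in log2 (edgeR adjusted p 7.65e-23). PLK1 stood at 266, 257 and 276 CPM with both drugs, against 134, 133 and 150 CPM with 5-Ph-IAA, and the fold change was 0.94 ± 0.05 in log2 (edgeR adjusted p 1.63e-19). Neither gene had overlapping groups. CDC20, the activator of the anaphase-promoting complex, stood at 218, 208 and 232 CPM with both drugs and 107, 108 and 131 CPM with 5-Ph-IAA. Its log2 fold change was 0.93 after 5-Ph-IAA and 0.98 without it. LMNB1, the nuclear lamina gene lamin B1, was the 1 member that fell, with 40.5, 40.4 and 34.1 CPM with both drugs and 50.7, 48.3 and 42.8 CPM with 5-Ph-IAA, and its log2 fold change was -0.31 after 5-Ph-IAA and -0.45 without it. LMNB1 was not called without 5-Ph-IAA replicate 1 or 2, or without both drugs replicate 3. The 13 members not called after 5-Ph-IAA had log2 fold changes between -0.26 (KIF15, a spindle kinesin) and 0.38 (KIF18B, a kinesin that shortens microtubules).

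The levels of these genes were lower with 5-Ph-IAA, with or without prexasertib. Mean CPM with 5-Ph-IAA was below mean CPM with DMSO in 79 of the 80 MMB and FOXM1 targets, and mean CPM with both drugs was below mean CPM with prexasertib in all 80. Across the 80, the median ratio of both drugs to prexasertib was 0.557, and that of 5-Ph-IAA to DMSO was 0.549. With both drugs, 67 of the 80 stood below their DMSO mean and 13 above it. KIF20A, for example, had 477, 474 and 506 CPM with prexasertib and 214, 211 and 221 CPM with DMSO, so its 201, 197 and 203 CPM with both drugs were lower than in any DMSO library. A lower mean with 5-Ph-IAA than with DMSO was not particular to this list. It was found in 58 of 62 E2F targets and 29 of 32 p53 targets, with median ratios of 0.73 and 0.823. Among repair genes it was found in 33 of 52, and among immediate-early genes in 18 of 35. The share over all genes tested was not computed. These ratios compare group means and were not tested.

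Promoters of this list held the elements described above more often than other promoters, which the choice of known targets makes likely in advance. The RefSeq table held windows for 70 of the 80 genes, and 52 of them (74.3%) had a CHR, against 11.0% of 11547 windows of all genes tested and 16.6% of 27305 windows in the whole table. A CCAAT box was present in 70.0% of the 70 windows and in 36.3% of windows of genes tested. In PLK1 the CHR lies 29 bases before the start used by the window, and in PIF1 it lies 20 bases before that window's start, which is not the 5′ end of the full gene span. The windows of KIF20A and CCNB1 each hold 2 CCAAT boxes and neither of the searched CHR spellings. Among all genes tested, 1269 had a CHR in the window, and 140 of these (11.0%) were called higher after 5-Ph-IAA, against 7.52% of windows with none. Where a CHR and a CCAAT box occurred together, in 535 windows, 17% were called higher. The 1269 windows with a CHR include the 52 of the MMB and FOXM1 list, most of whose genes rose. The shares therefore restate that list in part, and they were not recomputed without it. Motif matches are descriptions of letters and not of binding.

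Most known targets of p53 rose too. Of 32 tested, 29 rose and 1 fell after 5-Ph-IAA, while 25 rose and 1 fell without it. Over all genes tested 7.8% rose and 7.7% fell after 5-Ph-IAA, and 8.37% and 9.77% without it. For the p53 targets the median log2 fold change was 0.479 after 5-Ph-IAA and 0.37 without it. All 25 that rose without 5-Ph-IAA also rose after it. BTG2, an antiproliferative gene, stood at 225, 214 and 209 CPM with both drugs and 98.7, 102 and 80.9 CPM with 5-Ph-IAA, and the fold change was 1.21 ± 0.06 in log2 (edgeR adjusted p 5.56e-22). CDKN1A, which encodes the CDK inhibitor p21, averaged 1709 ± 90.6 CPM with both drugs and 1008 ± 57.9 CPM with 5-Ph-IAA (SD, n = 3 each). Both genes had groups that did not overlap. GDF15, a secreted stress cytokine, stood at 383, 367 and 349 CPM with both drugs and 210, 214 and 182 CPM with 5-Ph-IAA. PPM1D, BBC3 and GADD45A, a phosphatase that limits p53 signalling, a proapoptotic factor and a damage-response gene, had log2 fold changes of 0.91, 0.93 and 0.89. ZMAT3, an RNA-binding target of p53, was the 1 that fell, with 34.5, 38.4 and 30.9 CPM with both drugs and 60.5, 55.8 and 43.2 CPM with 5-Ph-IAA, and it was not called without the block. Mean CPM with both drugs was above the DMSO mean in 28 of the 32. Without the replicate block edgeR called 16 of the 32 higher.

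Genes of S phase entry and DNA replication fell in part. Of 62 E2F targets tested, 20 fell and 3 rose after 5-Ph-IAA, and 30 fell and 3 rose without it, while 7.7% and 9.77% of all genes tested fell. All 20 also fell without 5-Ph-IAA, and the median log2 fold change was -0.174 after it and -0.265 without it. MCM10, an initiation factor, stood at 19.4, 19.3 and 20.4 CPM with both drugs and 34.5, 34 and 34.7 CPM with 5-Ph-IAA, and the fold change was -0.81 ± 0.09 in log2 (edgeR adjusted p 1.72e-09). UHRF1, which helps maintain DNA methylation, stood at 17.4, 16.9 and 19.9 CPM with both drugs and 33.9, 31.6 and 30.4 CPM with 5-Ph-IAA. CDC6 and CDT1, which load the replicative helicase, had log2 fold changes of -0.57 each after 5-Ph-IAA, and -0.83 and -0.86 without it. Members that rose were PCNA (0.36), DBF4 (0.42) and TYMS (0.19). RRM2, a ribonucleotide reductase subunit, stood at 104, 103 and 132 CPM with both drugs and 114, 110 and 150 CPM with 5-Ph-IAA, and its edgeR adjusted p was 0.0708. E2F sites were found in 35 of 53 windows of this list (66.0%), against 14.4% of windows of genes tested. The choice of known E2F targets makes this likely in advance.

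A share of the DNA repair genes fell as well. Of 52 tested, 19 fell and 1 rose after 5-Ph-IAA, with a median log2 fold change of -0.199, and 18 fell and 4 rose without it, with a median of -0.11. The shares of all genes tested that fell were 7.7% after 5-Ph-IAA and 9.77% without it. The fallen genes shared by both comparisons numbered 11. BRCA1, which acts in homologous recombination, stood at 80.7, 79.7 and 85.6 CPM with both drugs and 109, 116 and 108 CPM with 5-Ph-IAA (edgeR adjusted p 1.86e-07). Its partner BARD1 stood at 7.83, 7.81 and 6.83 CPM with both drugs and 14.9, 12.5 and 15.3 CPM with 5-Ph-IAA. CHEK1, the gene of the inhibited kinase, stood at 24.4, 23.5 and 26 CPM with both drugs and 33.6, 30.6 and 29.3 CPM with 5-Ph-IAA, and the fold change was -0.34 ± 0.09 in log2 (edgeR adjusted p 0.00619). CHEK1 was not called without 5-Ph-IAA replicate 1 or 2, nor without the block. WEE1, the kinase that restrains CDK1, was the 1 member that rose, at 26.4, 25.2 and 27.1 CPM with both drugs against 17.6, 18.2 and 15.9 CPM with 5-Ph-IAA. Leaving out 5-Ph-IAA replicate 1 or replicate 2 left 12 repair genes called lower, and without the block 7 were.

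Immediate-early genes, which growth factors and stress switch on without new protein synthesis, moved in both directions. Of 35 tested, 16 rose and 8 fell after 5-Ph-IAA, and 19 rose and 5 fell without it, with medians of 0.314 and 0.332. The shares over all genes tested were 7.8% higher and 7.7% lower after 5-Ph-IAA, and 8.37% and 9.77% without it. FOS stood at 15.7, 13.7 and 8.68 CPM with both drugs and 5.72, 7.86 and 6.6 CPM with 5-Ph-IAA. NR4A1, an orphan nuclear receptor, stood at 104, 105 and 89.5 CPM with both drugs and 61.9, 56.8 and 66.1 CPM with 5-Ph-IAA, and the fold change was 0.70 ± 0.07 in log2 (edgeR adjusted p 3.39e-09). In both genes every library with both drugs was above every library with 5-Ph-IAA. MYC stood at 75.9, 70.7 and 75.7 CPM with both drugs and 112, 100 and 124 CPM with 5-Ph-IAA, and the fold change was -0.60 ± 0.08 in log2 (edgeR adjusted p 2.38e-06). KLF6 and CCN1 also fell, with log2 fold changes of -0.48 and -0.46. Without the block edgeR called 3 members higher. Without the 4 libraries of replicate 3, 18 immediate-early genes, 60 MMB and FOXM1 targets and 28 p53 targets were higher, and 20 E2F targets and 16 repair genes were lower. Among 913 windows of genes called higher, 23 (2.52%) held the serum response element core, against 1.02% for all genes tested. Among 924 windows of genes called lower, 13 (1.41%) held it.

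Histone genes could be described for few members. Of 62 replication-dependent histone genes, 17 passed the filter on low counts, and their mature mRNA lacks the poly(A) tail used for selection. Of the 17, 7 were called higher and none lower after 5-Ph-IAA, against 7.8% and 7.7% of all genes tested. Those that passed may have done so through the group where they were high, so no more is read from the count. These genes are close copies of one another, so single values are uncertain. H2BC12 stood at 47, 51.5 and 50 CPM with both drugs and 34.8, 29.5 and 36.8 CPM with 5-Ph-IAA. The log2 fold change of H2BC12 was 0.56 after 5-Ph-IAA and 1.02 without it, and the difference had an edgeR adjusted p of 0.0798.

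Regulators of the mitotic programme moved in both directions. Of 39 genes of MuvB, DREAM and CDK control tested, 7 rose (17.9%) and 9 fell (23.1%) after 5-Ph-IAA, against 7.8% and 7.7% of all genes tested. MYBL2 stood at 115, 100 and 135 CPM with both drugs and 114, 106 and 140 CPM with 5-Ph-IAA, and its groups overlapped. FOXM1 averaged 193 ± 17.1 CPM with both drugs and 184 ± 7.5 CPM with 5-Ph-IAA, and LIN9, a MuvB subunit, averaged 12.7 ± 1.84 CPM with both drugs and 14.6 ± 1.3 CPM with 5-Ph-IAA (SD, n = 3 each). None of these 3 was called. RBL1, which encodes the pocket protein p107 of DREAM, fell to 24.4, 26.6 and 25.7 CPM with both drugs, against 43.9, 45.5 and 44 CPM with 5-Ph-IAA. DYRK1A, the kinase that promotes DREAM assembly, stood at 13.8, 11.9 and 10.2 CPM with both drugs and 26.9, 24.5 and 19.9 CPM with 5-Ph-IAA. The log2 fold change of RBL1 was -0.80 after 5-Ph-IAA and -1.05 without it, and that of DYRK1A was -0.99 after 5-Ph-IAA and -0.98 without it.

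In other groups at most 7 members were called in either direction, and these counts stand beside 7.8% higher and 7.7% lower over all genes tested. Shares well above these were 28.0% of sterol genes, 23.1% of ATF4 targets and 29.4% of epithelial markers higher, and 19.2% of NRF2 targets lower. Of 38 subunits of the TRRAP complexes, 4 rose and 2 fell, shares near those of all genes. BRD8 of TIP60 stood at 112, 110 and 128 CPM with both drugs and 83.3, 82.3 and 78.8 CPM with 5-Ph-IAA. Of 52 MYC and ribosome biogenesis targets, 7 rose and none fell, with a median log2 fold change of 0.0945. ATF4 targets, which mark the integrated stress response, had 6 of 26 higher and 3 lower, and ATF4 itself had a log2 fold change of 0.38. NF-kB and interferon genes had 4 of 30 higher and 5 lower. Sterol genes had 7 of 25 higher and 2 lower, and NRF2 targets, which answer oxidative stress, had 1 of 26 higher and 5 lower, with HMOX1 at 585, 625 and 727 CPM with both drugs against 809, 832 and 1145 CPM with 5-Ph-IAA (not called without the block). Epithelial markers had 5 of 17 higher and none lower although their median was -0.0285, and none of 5 tested markers of other cell types was called.

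**Figure D3:**
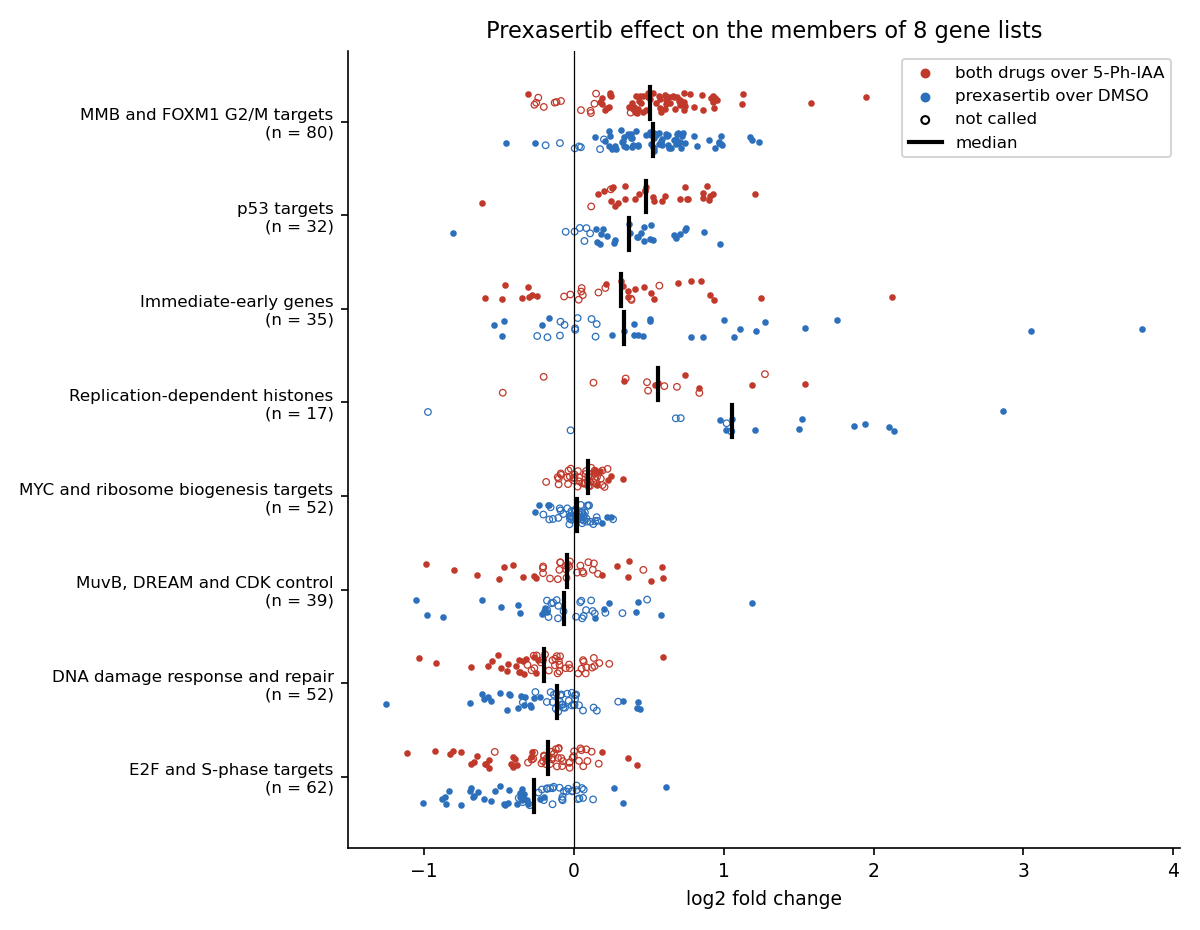
Log2 fold change of each tested member of 8 gene lists, with both drugs over 5-Ph-IAA (upper row of each list) and prexasertib over DMSO (lower row), filled where called by edgeR. The medians of MMB and FOXM1 targets lie at 0.506 after 5-Ph-IAA and 0.531 without it, and those of E2F targets at -0.174 and -0.265.

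The difference between the responses was tested gene by gene as an interaction, and it was called for 96 genes (0.655%). In 55 (0.375%) the response was more positive after 5-Ph-IAA and in 41 (0.28%) more negative. Among the 1227 genes that rose without 5-Ph-IAA the difference was called for 49, and among the 1432 that fell for 26. For 895 of the 1227 (72.9%) and 1035 of the 1432 (72.3%), the 95% interval of the difference lay within 1.5-fold in either direction, so a larger difference is outside the interval for those genes. For the others no such bound can be given. Over all 14658 genes tested, 9281 had an interval within 1.5-fold, so such a bound was common and not particular to genes that responded. The number of calls rested on single libraries: it ran from 18 to 103 more positive and 10 to 57 more negative when 1 library was left out. Leaving out DMSO, prexasertib or 5-Ph-IAA replicate 1 gave 30, 18 and 19 more positive and 22, 10 and 11 more negative, and leaving out replicate 2 of the same groups gave 34, 21 and 20 more positive and 16, 10 and 11 more negative. Leaving out both drugs replicate 1 or 2 gave 27 and 26 more negative, and leaving out DMSO or 5-Ph-IAA replicate 3 gave 103 and 101 more positive. Without all 4 libraries numbered 3 there were 126 and 125. Without the block edgeR called none in either direction, with 283 more positive and 236 more negative at an unadjusted p under 0.05. With the block, limma-voom called 55 and 42 and DESeq2 called 48 and 38.

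Responses that were smaller or lost after 5-Ph-IAA included EGR1 and other early genes. EGR1 rose to 47.5, 47.9 and 20.5 CPM with prexasertib, against 3.62, 3.87 and 0.856 CPM with DMSO, a log2 fold change of 3.79, so that the difference of its responses was -1.67 (edgeR adjusted p 0.00337). It was not called with DESeq2 or without the 4 libraries of replicate 1. FOSB had a log2 fold change of 1.25 after 5-Ph-IAA and 3.05 without it, and the difference was -1.81 (edgeR adjusted p 0.0214). FOSB stood at 13.6, 13.3 and 3.49 CPM with both drugs and 5.13, 4.57 and 2.81 CPM with 5-Ph-IAA, and these groups overlapped. The rise of FOSB after 5-Ph-IAA was not called without the block or without the 4 libraries of replicate 1. For both genes the 5-Ph-IAA level was above the DMSO level in mean CPM, at 6.75 against 2.78 for EGR1 and 4.17 against 2.55 for FOSB. KNL1, a kinetochore scaffold, stood at 34.9, 34.3 and 37.5 CPM with both drugs and 38.6, 38.9 and 36 CPM with 5-Ph-IAA, but at 62.8, 69.8 and 56.6 CPM with prexasertib and 47.7, 40.6 and 41.9 CPM with DMSO. Its log2 fold change was -0.09 after 5-Ph-IAA, where it was not called, and 0.54 without it, and the difference was -0.62 (edgeR adjusted p 0.00223). DBF4B, an activator of the kinase CDC7, and KDM6B, a histone H3K27 demethylase, had log2 fold changes of 0.06 and -0.12 after 5-Ph-IAA, where neither was called, and 0.63 and 0.53 without it, where both rose. Without the 4 libraries of replicate 1 none of these 3 differences was called, and without those of replicate 2 those of KNL1 and KDM6B were not. Of the 41 genes with a negative difference, 21 rose without 5-Ph-IAA and were not called after it, and 15 rose in both. MYC belonged to the other 5, which fell after 5-Ph-IAA and were not called without it.

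Responses that were more positive after 5-Ph-IAA included further mitotic and p53 genes. UBE2C, the ubiquitin-conjugating enzyme of the anaphase-promoting complex, stood at 150, 160 and 174 CPM with both drugs and 82.4, 82.6 and 88.8 CPM with 5-Ph-IAA, but at 258, 239 and 255 CPM with prexasertib and 206, 206 and 226 CPM with DMSO. Its log2 fold change was 0.93 after 5-Ph-IAA and 0.24 without it, a difference of 0.69 (95% interval 0.54 to 0.85, edgeR adjusted p 8.59e-08). CDK1 changed sign: it stood at 167, 186 and 162 CPM with both drugs and 131, 137 and 125 CPM with 5-Ph-IAA, but at 219, 222 and 166 CPM with prexasertib and 270, 256 and 199 CPM with DMSO. The difference was 0.65 (edgeR adjusted p 2.36e-05), and its promoter, printed above, holds a CHR and a CCAAT box. Among the 80 MMB and FOXM1 targets, 9 had a positive difference, namely CDK1, UBE2C, PLK1, CCNB1, KIF20A, HMMR, FAM83D, CENPA and KPNA2, and CENPE and CKAP5 had a negative one. For 69 of the 80 the interval of the difference lay within 1.5-fold, as it did for 9281 of all 14658 genes tested. Of the p53 targets, 5 had a positive difference (PHLDA3, AEN, BBC3, CDKN1A and TP53INP1) and none a negative one. Over all genes tested, the difference was positive for 0.375% and negative for 0.28%. The 9 genes called in opposite directions were CDK1, IER5L, KRT86, NDUFA13, CLTB, ETFB, ESRRA, OXLD1 and INPP5D, all higher after 5-Ph-IAA and lower without it. WNT6, a secreted WNT ligand whose gene overlaps WNT10A, stood at 7.83, 7.28 and 7.2 CPM with both drugs and 6.83, 6.53 and 6.3 CPM with 5-Ph-IAA, and was not called. It fell to 2.79, 2.82 and 2.84 CPM with prexasertib, against 6.33, 9.15 and 6.46 CPM with DMSO.

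**Figure D4:**
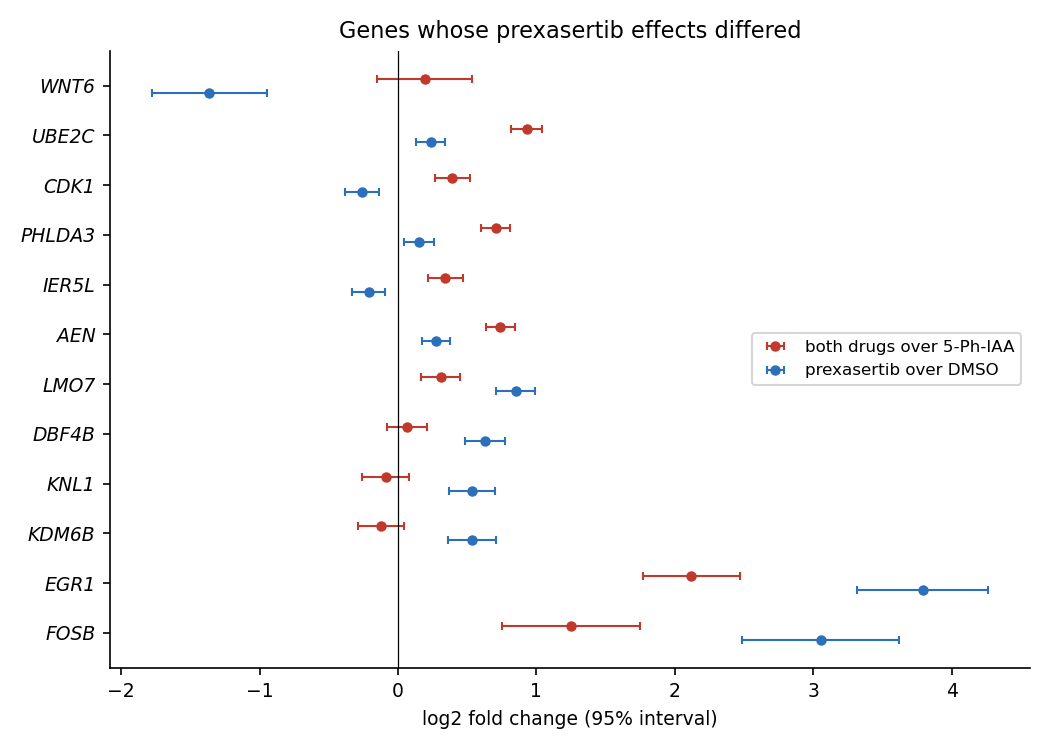
Log2 fold changes with 95% intervals of 12 genes whose prexasertib responses differed by the interaction test, with both drugs over 5-Ph-IAA above prexasertib over DMSO for each gene. Values for UBE2C, CDK1, PHLDA3, IER5L, AEN and WNT6 lie further right after 5-Ph-IAA, and those for EGR1 and FOSB lie at 2.12 and 1.25 against 3.79 and 3.05.

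Genes that rose after 5-Ph-IAA were shorter than genes that fell. The genomic span from start to end of the annotated gene had a median of 12.1 kb for genes called higher, 82.4 kb for genes called lower and 28.7 kb for all genes tested. Without 5-Ph-IAA the medians were 22 kb for genes called higher and 56.4 kb for genes called lower. In the shortest decile of genes, with a median span of 2.66 kb, 15% were called higher and 1.99% lower after 5-Ph-IAA, and the median log2 fold change was 0.119. In the longest decile, with a median span of 238 kb, 0.891% were called higher and 14.9% lower, and the median was -0.0971. The corresponding medians without 5-Ph-IAA were 0.0178 and -0.0404. Spearman's rho between span and log2 fold change across 14587 genes was -0.328 after 5-Ph-IAA and -0.122 without it, a description over genes that share libraries. By replicate number, the values after 5-Ph-IAA were -0.295, -0.316 and -0.154, so the relation was weakest between the libraries numbered 3. It was present among abundant genes, since of 158 genes in the shortest decile with a mean log2 CPM of 7 or more 51.9% were called higher, and of 100 such genes in the longest decile 1.0% were. The MMB and FOXM1 targets, with a median span of 29.4 kb, were close to the middle of all genes.

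**Figure D5:**
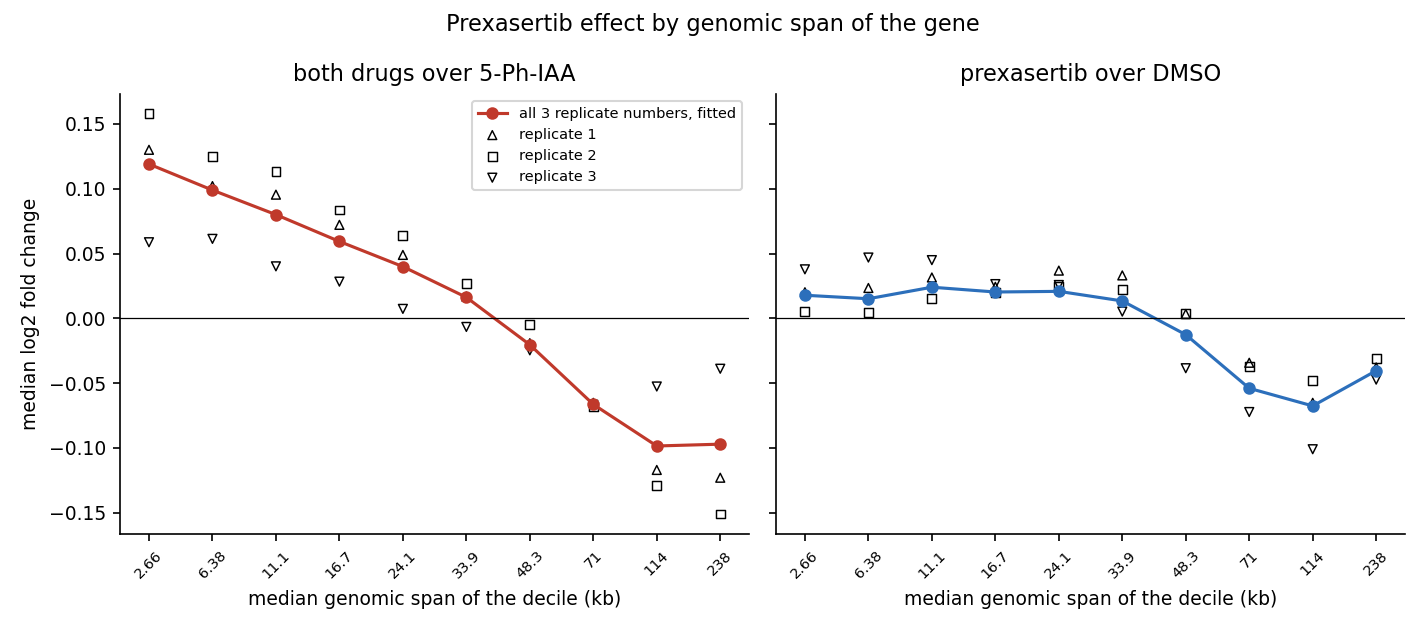
Median log2 fold change in deciles of genes ordered by genomic span, with both drugs over 5-Ph-IAA on the left and prexasertib over DMSO on the right; filled points are fitted values and open symbols are the difference in log2 CPM within each replicate number. After 5-Ph-IAA the fitted median declines from 0.119 in the shortest decile to -0.0971 in the longest, and all 3 replicate numbers decline.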

How the data were processed

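RNA was measured in 12 libraries of poly(A)-selected, directional RNA-seq. In the deposited table each value is a raw count of reads for 1 gene, a whole number that the authors left unnormalized. Per the submitters' processing notes, the tools included featureCounts 2.0.8 and limma 3.58.1 on build hg38. Which aligner, gene annotation and strand option were used is not given in the sources used here, so overlapping genes, antisense genes and close paralogs are uncertain. Of 28395 gene IDs, 27745 matched the RefSeq gene table (GRCh38.p14), and the other 650 held 0.0324% of the counts.

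Tests used edgeR (version 4.0.16, under R 4.3.3). The filter filterByExpr, given the groups, a minimum count of 10 and a minimum total of 15, retained 14658 genes that hold 99.92% of all counts. TMM scaling factors were 1.02 to 1.1 with 5-Ph-IAA and 0.925 to 0.978 without it. A robust quasi-likelihood model with terms for the 4 groups and the replicate number was fitted to all 12 libraries, so the groups share 1 estimate of the spread. The replicate numbers come from the sample titles. Same-numbered libraries correlated in their deviations by 0.22 to 0.633 over all pairs of groups. Libraries numbered 1 and 2 correlated with each other across groups by 0.196 to 0.366, so pairing by number is not shown for them. Libraries of the remaining number stood apart, with correlations of -0.503 to -0.326 with numbers 1 and 2. The contrasts were both drugs minus 5-Ph-IAA, prexasertib minus DMSO, and their difference. Benjamini-Hochberg adjustment ran across the 14658 genes, a gene was called under 0.05, and all adjusted p-values are from edgeR unless another tool is named. The biological coefficient of variation was 5.72%. SE and 95% intervals are Wald values from the fitted model. Levels are CPM on TMM-adjusted library sizes, and log2 CPM used a prior count of 2. Marker sums used library size alone.

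Named genes were the 12 largest called changes in each direction averaging 1 or more in log2 CPM and moving in 1 direction in all replicate numbers, the 3 members of each list with the smallest adjusted p in its main direction and 1 in the other, a fixed set including TRRAP, MYBL2, CCNB1 and MYC, the 5 smallest adjusted p in each direction of the difference, and the 5 largest responses without 5-Ph-IAA in each direction. Other list members were named after their values were seen. Some genes that met the rule are not reported here. The members and gene lists were chosen with earlier results of these data known. Lists are described by counts and medians only.

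The fit was tested on simulated data with known changes. Alternatives were other scalings, filters, no block, only the 6 libraries compared, limma-voom, DESeq2 1.42.0, and leaving out each library or each replicate number. No pair of libraries held identical counts. The 13 CUT&RUN samples were not analysed here.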

Additional observations from a re-analysis of the deposited data

Results flagged for a closer look

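The test of the difference between the prexasertib responses with and without 5-Ph-IAA marked 10 named genes, the 5 with the smallest edgeR adjusted p in each direction. More positive after 5-Ph-IAA, on the log2 scale, were UBE2C (difference 0.69), CDK1 (0.65), PHLDA3 (0.55), IER5L (0.55) and AEN (0.47). More negative were EGR1 (-1.67), KDM6B (-0.66), KNL1 (-0.62), DBF4B (-0.57) and LMO7 (-0.54). PHLDA3, a p53 target that restrains AKT signalling, stood at 269, 264 and 267 CPM with both drugs and 161, 152 and 179 CPM with 5-Ph-IAA, but at 259, 253 and 290 CPM with prexasertib and 243, 239 and 240 CPM with DMSO. AEN, a p53-induced nuclease, stood at 275, 272 and 289 CPM with both drugs and 169, 167 and 163 CPM with 5-Ph-IAA, but at 271, 285 and 284 CPM with prexasertib and 225, 230 and 240 CPM with DMSO. In both genes every 5-Ph-IAA library was below every DMSO library, while the ranges with both drugs and with prexasertib overlapped. LMO7, an actin-associated protein, averaged 74.4 CPM with both drugs and 60.2 CPM with 5-Ph-IAA, against 90.5 CPM with prexasertib and 50.1 CPM with DMSO. Without the replicate block none of the 10 differences was called, and with DESeq2 that of EGR1 was not. Without the 4 libraries of replicate 1, those of EGR1, DBF4B, KDM6B, LMO7 and KNL1 were not called either, and without those of replicate 2, those of KDM6B, LMO7 and KNL1.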

How the results depend on the processing

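All 2272 calls of both drugs against 5-Ph-IAA kept their sign in every other fit that gave a value. Without the replicate block, calls fell to 171 higher and 184 lower after 5-Ph-IAA, 346 and 347 without it, 133 and 119 shared, and 0 and 0 for the difference. That fit called 16 p53 targets and 3 immediate-early genes higher and 7 repair genes lower. These list counts fell by more than 1.5 times, whereas the counts for MMB and FOXM1 targets (46 higher) and E2F targets (14 lower) stayed within 1.5 times. Library size alone gave 660 higher. No filter on low counts gave 112 more positive and 65 more negative differences. The cause was not tested. Leaving out libraries gave 465 to 1209 higher and 472 to 1254 lower after 5-Ph-IAA, 665 to 1348 and 780 to 1480 without it, 7 to 126 and 2 to 125 for the difference, and 285 to 520 and 281 to 622 shared. The same fits called 57 to 67 MMB and FOXM1 targets, 25 to 29 p53 targets and 10 to 18 immediate-early genes higher, and 16 to 24 E2F targets and 9 to 21 repair genes lower. Signs reversed for TRRAP (-0.391 to 0.0401 over these fits) and DBF4B (-0.00117 to 0.155), neither called in the main comparison of both drugs with 5-Ph-IAA. At 10830048 to 17789482 counts and 3 libraries a group, smaller changes of low genes could be missed.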

Other observations

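Families grouped by symbol after their values were seen give a further description of the response after 5-Ph-IAA, where 7.8% of all genes tested were called higher and 7.7% lower. Cytosolic ribosomal proteins had 51 of 82 tested genes called higher and none lower, with a median log2 fold change of 0.173 after 5-Ph-IAA and 0.0839 without it, where 6 were higher. Respiratory chain subunits (symbols NDUFA, NDUFB, NDUFC, NDUFS, NDUFV, UQCR, COX and ATP5) had 22 of 75 higher and none lower, with medians of 0.136 after 5-Ph-IAA and 0.0225 without it. Proteasome subunits had 16 of 38 higher and 1 lower, and mitochondrial ribosomal proteins 12 of 77 higher and none lower. These are abundant genes of short span, with family medians of 5.05 to 14.4 kb. The interaction was called for 0 of 82, 2 of 75, 1 of 38 and 1 of 77 of them, against 0.655% of all genes tested. With no scaling beyond library size their medians were also above 0, at 0.12, 0.0828, 0.0851 and 0.0547. Zinc finger genes named ZNF had 14 of 391 higher and 36 lower, the lower calls being near the share of all genes and the higher calls below it, with a median of -0.0433 after 5-Ph-IAA and -0.0441 without it. Which of span, abundance and family goes with the rise was not tested.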
